A study of Mus musculus with 6 samples.

Results

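The genes described here are 10 genes of antigen presentation and of the Langerhans cell in mouse epidermis, namely H2-Aa, H2-Ab1, H2-Eb1, Cd74, H2-DMa, Ciita, Cd207, Epcam, Csf1r and Il34. They were taken by symbol from a table of 24972 entries, and all 10 were found in it. The genes were selected from this table with the difference between its 2 groups already known, so their differences between the groups are given below as a description, without p-values.

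Poly(A) RNA had been sequenced from basal epidermal cells that were flow-sorted from mouse back skin, in 3 control and 3 Piezo1 cKO libraries. All 6 samples have the genotype p63CreER; Piezo1fl/fl; R26-mTmG, in which tamoxifen activates a Cre recombinase driven by p63 in basal keratinocytes. Cre then deletes Piezo1, the gene of a mechanically gated cation channel, and switches a membrane fluorescent reporter. Control samples were labelled as vehicle. The cKO samples came from mice given tamoxifen in 3 injections, each of 20 ug, from postnatal day 45 to day 52. Tamoxifen and the deletion therefore cannot be told apart. No label says how many animals stand behind a sample, and spread between samples may in part be technical.

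Langerhans cells are the resident antigen-presenting cells of the epidermis. They carry MHC class II molecules, whose alpha and beta chains bind peptides and show them to CD4 T cells, and the lectin langerin. Keratinocytes secrete interleukin-34, and Langerhans cells need it, acting through the receptor CSF1R, to develop and persist. Class II genes are switched on together by the transactivator CIITA, which does not bind DNA itself but docks on factors held by the X and Y boxes of class II promoters.

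The stretch before a listed start site is shown for genes with and without that layout there. RefSeq (GRCm38.p6) gave promoters for 5 of the 10 genes, and each line below runs 5′ to 3′ over the 150 bases before the start. Capitals mark an X box (searched as CTNGCAAC), an X2 box (TGACGTCA) or a Y box (CTGATTGG), on either strand. These letters were picked after the promoters had been read, and the motifs do not overlap one another here. H2-Aa lies at chr17:34287824-34287973 on the minus strand, H2-Eb1 at chr17:34305717-34305866 on the plus strand, H2-DMa at chr17:34122682-34122831 on the plus strand and Cd207 at chr6:83677858-83678007 on the minus strand.
H2-Aa: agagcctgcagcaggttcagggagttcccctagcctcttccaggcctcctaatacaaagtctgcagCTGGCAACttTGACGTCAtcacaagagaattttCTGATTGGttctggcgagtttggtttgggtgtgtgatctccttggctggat
H2-Eb1: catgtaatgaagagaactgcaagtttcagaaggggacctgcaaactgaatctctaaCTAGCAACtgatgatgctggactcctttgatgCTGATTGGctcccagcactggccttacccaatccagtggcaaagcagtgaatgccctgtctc
H2-DMa: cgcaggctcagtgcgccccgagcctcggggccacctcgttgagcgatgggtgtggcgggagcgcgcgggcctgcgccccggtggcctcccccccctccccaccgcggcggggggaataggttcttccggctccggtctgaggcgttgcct
Cd207: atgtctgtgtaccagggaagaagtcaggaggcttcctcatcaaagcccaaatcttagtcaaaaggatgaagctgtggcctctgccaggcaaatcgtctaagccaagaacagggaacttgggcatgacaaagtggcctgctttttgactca

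The alpha chain gene H2-Aa and the beta chain gene H2-Eb1 share an X box followed by a Y box, with 25 and 24 bases between them. Counted from the start site, the X box begins at -84 in H2-Aa and at -94 in H2-Eb1. H2-Aa also holds an X2 box between them. Among 32851 promoters of the table, 2.84% held this X box, 3.83% the Y box and 1.55% the X2 box within 250 bases before the start. An X box followed by a Y box within 40 bases was found in 8 promoters (0.0244%), 2 of which are those of H2-Aa and H2-Eb1. The others belong to genes outside MHC class II. Since the letters were picked after the promoters had been read, nothing is read from how rare this layout is. None of these letters was found in the 250 bases before Cd207, Epcam or either of the 2 start sites listed for H2-DMa, both of which lie inside the gene span of the annotation. The upstream one of these is shown. Other starts within that span (34119541 to 34139101) were not searched, so for H2-DMa the absence of boxes covers these 2 starts only.

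The libraries differed in ways that touch these genes. Depth, read from the smallest step in the values, was about 20.8 to 24.5 M reads in controls (M, mega), 15.6 and 14.2 M in cKO replicates 2 and 3, and 1.05 M in cKO replicate 1. In that shallow library a single read was worth 12.2 normalized counts and 3 reads came to 36.7, against 1.47 to 2.28 in the other 5. Xist and the Y-linked genes marked control replicate 1 and cKO replicates 1 and 2 as female, and control replicates 2 and 3 and cKO replicate 3 as male. The basal keratin genes Krt5 and Krt14 were abundant in every library, with Krt5 at 228148 to 266942 normalized counts. Piezo1 stood at 806, 1098 and 1476 in controls and at 380, 565 and 399 in cKO. Values were tested as log2(value + 1) with limma over the 12239 genes with a mean of at least 10, and with Benjamini-Hochberg adjustment 0 genes passed 0.05, a background of 0%. Unadjusted p-values under 0.05 were found for 603 genes (4.93%), of which 180 lay higher in cKO (1.47% of all tested) and 423 lower (3.46%).

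The 10 genes differed widely in level. Per kilobase of exon in controls (mean ± SD, n = 3), Epcam stood highest at 1441 ± 428 normalized counts. Cd74, the invariant chain that guards the class II groove, followed at 417 ± 21.1 and Il34 at 306 ± 49.6. The beta chain genes H2-Eb1 and H2-Ab1 came next at 191 ± 26.4 and 129 ± 25.5. Cd207, which encodes langerin, stood at 115 ± 49.9 and H2-Aa at 103 ± 25.1 per kilobase. H2-DMa, a chain of the factor that exchanges peptides on class II, was at 16.1 ± 1.79, the receptor gene Csf1r at 6.41 ± 1.51 and Ciita at 0.881 ± 0.701. Neighbours in this order kept it in all 3 controls except H2-Ab1 with Cd207 and Cd207 with H2-Aa, which kept it in 2 of 3 and lie within their spread. In the cKO libraries Epcam was above Cd74 in 1 of 3, Cd74 above Il34 in 2 of 3, Il34 above H2-Eb1 in 2 of 3 and Cd207 above H2-Aa in 0 of 3. The other neighbours kept their order in 3 of 3.

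All 10 genes passed the filter, Ciita through its cKO values, since its control mean was 8.40. In 5 genes (H2-Ab1, H2-Eb1, Cd74, Csf1r and Il34) all 3 cKO values lay above all 3 control values, which was so at 5.16% of all genes. In Epcam all 3 cKO values lay below the controls, which was so at 5.7% of all genes. The other 4 genes overlapped between the groups. Since this contrast chose the genes, nothing is read from these counts. Without cKO replicate 1 the higher count was 6 (10.2% of all genes) and without cKO replicate 3 it was 5 (8.59% of all genes). Epcam lay below the controls in both cases, where 9.34% and 10.1% of all genes did. In bulk RNA, more cells of a type and more RNA per cell cannot be told apart. The cells were sorted as basal epidermal cells, and how many other cells passed the sort in each library is not given. The values therefore do not measure how many Langerhans cells or T cells the epidermis held.

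**Figure D1:**
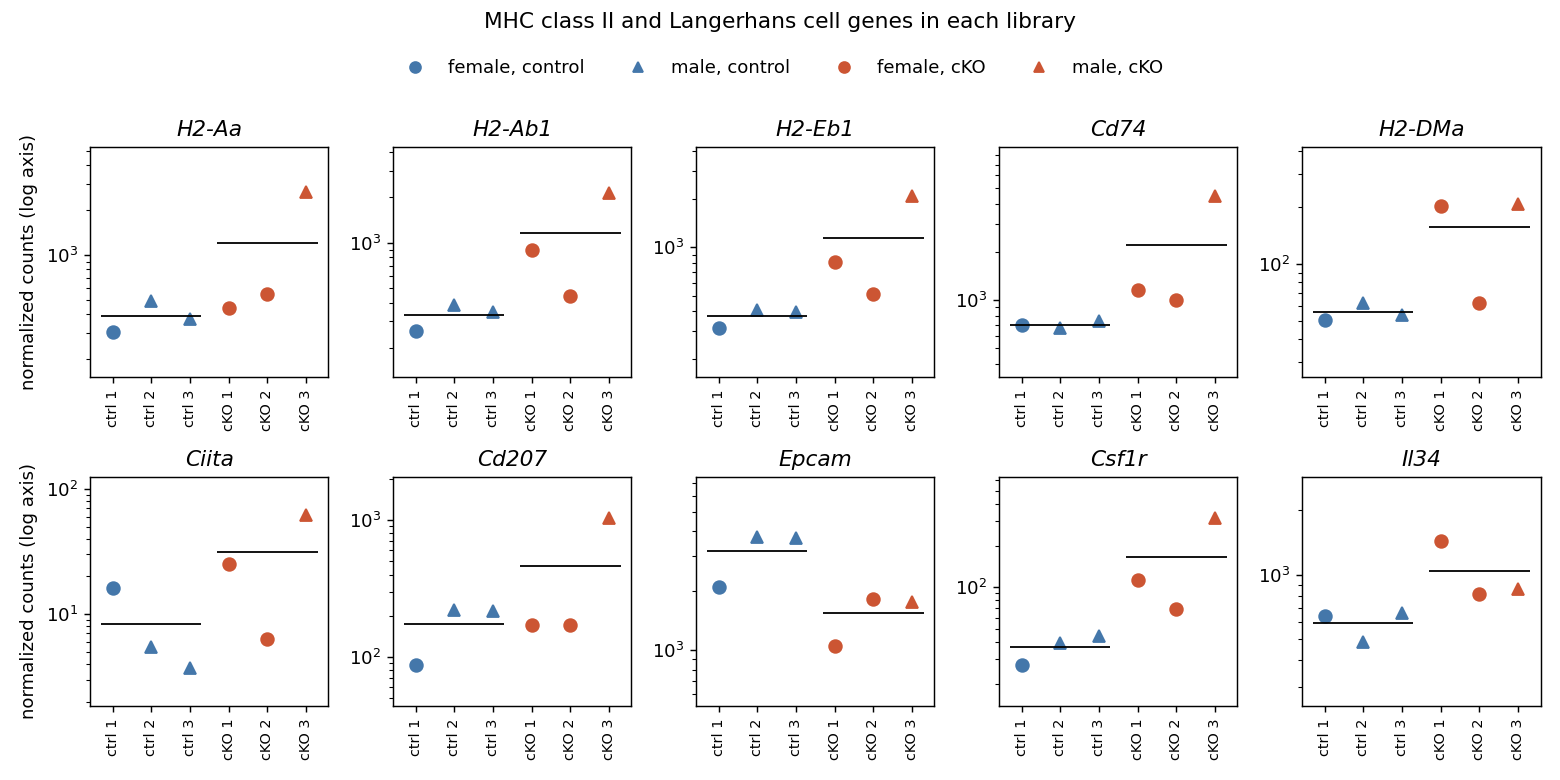
Normalized counts (log axis) of the 10 genes in the 6 libraries, circles for female and triangles for male libraries, with a black line at each group mean. cKO replicate 3 has the highest value in 8 of the 10 genes, while Epcam is lower in cKO and Il34 is highest in cKO replicate 1.

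The class II chains lay higher in cKO, and most of all in cKO replicate 3. Cd74 (chromosome 18, 60803848 to 60812652, plus strand, GRCm38) gave 698, 667 and 737 normalized counts in the controls, listed here and below by replicate number. The cKO libraries gave 1163, 1008 and 4490. The controls lay close together, and the male cKO library stood far above both female ones. On the log2(value + 1) scale cKO exceeded control by 1.31 (SE 0.52, 95% interval 0.11 to 2.52).

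H2-Ab1, the beta chain of I-A (chromosome 17, 34257689 to 34269419, plus strand), gave 258, 386 and 347 in controls and 900, 444 and 2153 in cKO. Its cKO values all lay above the controls, although cKO replicate 2 did so by little. Its log2 difference was 1.54 (SE 0.52, interval 0.34 to 2.74).

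H2-Eb1, the beta chain of I-E (34305867 to 34316674, plus strand), gave 313, 407 and 395 in controls and 811, 511 and 2099 in cKO. The groups did not overlap, for a log2 difference of 1.37 (SE 0.47, interval 0.28 to 2.46). Its alpha chain partner, listed as the pseudogene H2-Ea-ps, was at 0 in all 6 libraries.

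H2-Aa, the alpha chain of I-A (34282744 to 34287823, minus strand), gave 307, 495 and 372 in controls and 443, 547 and 2628 in cKO. Here cKO replicate 1 lay inside the control range, so the groups overlapped. The log2 difference came to 1.16 (SE 0.62, interval -0.28 to 2.61).

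H2-DMa (34119541 to 34139101, plus strand) gave 50.4, 62.4 and 53.8 in controls and 203, 62.0 and 209 in cKO. cKO replicate 2 was level with the controls while the other 2 stood well above them, for a log2 difference of 1.31 (SE 0.49, interval 0.16 to 2.45). The 203 of cKO replicate 1 rests on about 16.6 reads. H2-DMa shares 10.4% of its exonic bases with Brd2 on the opposite strand, which was at 5218 to 7278 in the 6 libraries. The use of strand in counting is not given in the sources used here, so reads of the 2 genes may not have been told apart.

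Ciita (chromosome 16, 10480059 to 10528418, plus strand) was the weakest of the 10. It gave 16.1, 5.47 and 3.68 normalized counts in controls and 25.0, 6.29 and 62.5 in cKO. The value of cKO replicate 1 was about 2.04 reads, under the limit of 3 reads, and cKO replicate 2 lay inside the control range. The interval around its log2 difference of 1.51 (SE 1.03, -0.88 to 3.91) covers 0, and the difference rests mainly on cKO replicate 3. Among females alone it was -0.31.

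The class II differences depended on single libraries to unlike degrees. Without cKO replicate 3 the log2 fold change was 0.63 for Cd74, 0.95 for H2-Ab1, 0.80 for H2-Eb1, 0.36 for H2-Aa, 1.01 for H2-DMa and 0.78 for Ciita. Without the shallow cKO replicate 1 it was 1.60 for Cd74, 1.58 for H2-Ab1, 1.49 for H2-Eb1, 1.64 for H2-Aa, 1.03 for H2-DMa and 1.42 for Ciita. Within sex the difference for Cd74 was 0.63 in females (1 control, 2 cKO) and 2.68 in males (2 controls, 1 cKO). With single libraries on one side of each comparison, a difference between the sexes and a difference between libraries cannot be told apart.

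**Figure D2:**
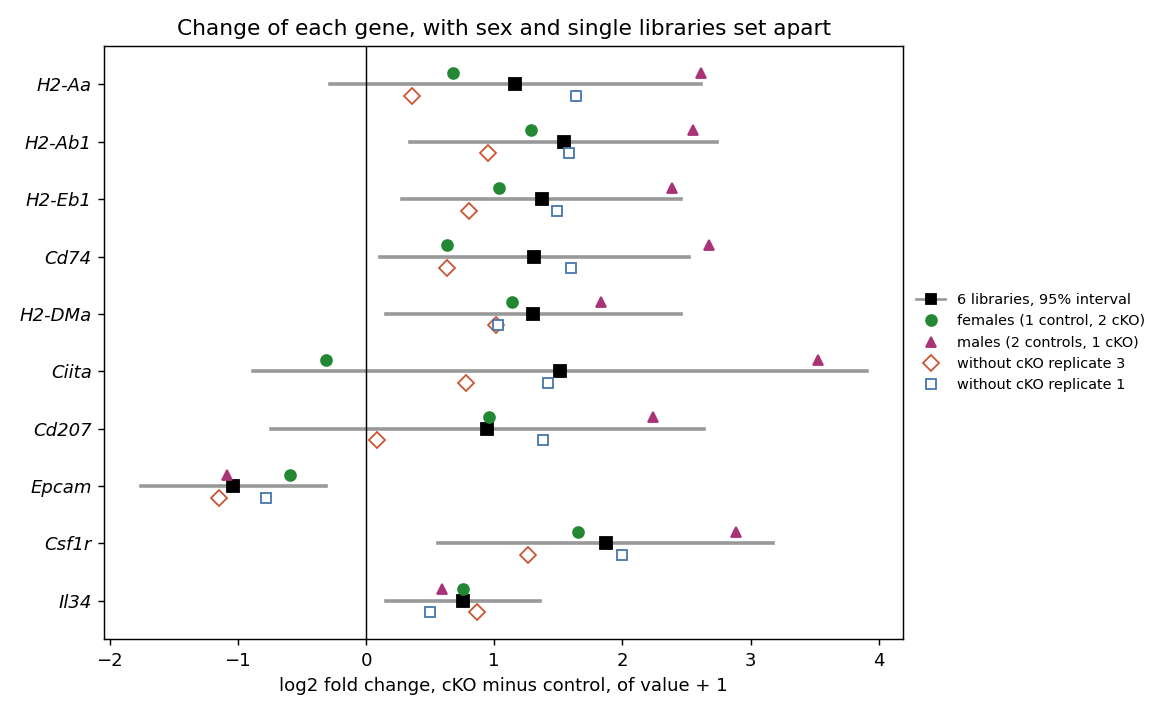
The log2 fold change (cKO minus control) of each gene over 6 libraries with its 95% interval, the same within each sex, and without cKO replicate 1 or 3. Males lie to the right of females for all class II genes, Cd207 and Csf1r, and Cd207 is near 0 (0.08) without cKO replicate 3.

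Langerin gave a pattern of its own. Cd207 (chromosome 6, 83671215 to 83677857, minus strand) gave 87.3, 222 and 216 normalized counts in the controls, against 170, 172 and 1035 in cKO. Both female cKO libraries lay below both male controls, so the groups overlapped (log2 fold change 0.95, SE 0.73, interval -0.74 to 2.63). The 170 of cKO replicate 1 rests on about 13.9 reads. Within females the single control at 87.3 lay below both cKO libraries, a difference of 0.96, and within males both controls lay below the single cKO library, a difference of 2.24. With sex as a term in the limma fit the log2 fold change of Cd207 was 1.60, and without cKO replicate 3 it was 0.08. Without control replicate 1 it was 0.51.

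Csf1r, the receptor for IL-34 and CSF1 (chromosome 18, 61100598 to 61132149, plus strand), was at 27.5, 39.0 and 44.5 in controls and at 113, 69.3 and 314 in cKO. All cKO libraries lay above all controls, and the log2 difference, the largest among the 10 genes, came to 1.87 (SE 0.56, interval 0.56 to 3.17). Leaving out cKO replicate 3 gave 1.26, and leaving out cKO replicate 1 gave 2.0. In the latter library the Csf1r value rests on about 9.26 reads. Csf1r shares 15.1% of its exonic bases with Hmgxb3 on the opposite strand, which was at 277 to 538 over the libraries. The use of strand in counting is not given, so reads of Csf1r and Hmgxb3 may not have been told apart.

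Il34, the ligand gene (chromosome 8, 110741829 to 110805924, minus strand), was at 642, 488 and 667 in controls and at 1435, 816 and 861 in cKO. The groups did not overlap. The difference was smaller than for the receptor (log2 fold change 0.76, SE 0.26, interval 0.15 to 1.36) and, unlike that of the class II genes, was largest in cKO replicate 1. Leaving out that library gave 0.50, and leaving out cKO replicate 3 gave 0.87. Per 1000 normalized counts of Krt14, a basal keratin, Il34 stood at 4.30, 3.60 and 5.16 in controls and at 7.05, 6.97 and 6.42 in cKO, again without overlap.

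Epcam encodes an adhesion molecule that Langerhans cells carry and that epithelial cells, including those of the hair follicle, carry as well. It lies on chromosome 17 at 87635979 to 87651129 on the plus strand. Epcam was at 2080, 3738 and 3672 in controls and at 1048, 1812 and 1747 in cKO. As a group the cKO libraries thus lay lower for Epcam, while in the fit they lay higher for the class II genes, Csf1r and Cd207. The order of libraries differed: Epcam was lowest in cKO replicate 1, and those genes were highest in cKO replicate 3. The log2 difference of -1.03 (SE 0.31, interval -1.76 to -0.31) is a 2.05-fold lower value. Leaving out cKO replicate 1 gave -0.78, and leaving out cKO replicate 3 gave -1.15. Within females it was -0.59 and within males -1.08. The control female had the lowest control value, and it still lay above all cKO libraries.

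Ratios within a library show which genes kept step. H2-Eb1 stood to H2-Ab1 at 1.21, 1.05 and 1.14 in controls and at 0.902, 1.15 and 0.975 in cKO, a 1.34-fold range over libraries in which each gene itself spanned far more. H2-Aa stood to H2-Ab1 at 1.07 to 1.28 in 5 libraries and at 0.492 in cKO replicate 1, where H2-Aa rests on about 36.2 reads. H2-DMa stood to Cd74 at 0.0464 to 0.0936 in 5 libraries and at 0.175 in cKO replicate 1. The 2 chains of I-A thus kept a like ratio in the 5 deeper libraries, and the shallow library stood apart.

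Cd74 stood to Cd207 at 8.0 in the female control and at 6.85 and 5.87 in the female cKO libraries. In the male controls this ratio was 3.01 and 3.42, and in the male cKO library 4.34. All 3 female libraries thus lay above all 3 male ones, and the groups overlapped. The 6.85 of cKO replicate 1 rests on about 13.9 reads of Cd207. Csf1r stood to Cd74 at 0.0394, 0.0586 and 0.0604 in controls and at 0.0974, 0.0687 and 0.0699 in cKO. Epcam stood to Cd207 at 23.8, 16.8 and 17.0 in controls and at 6.18, 10.6 and 1.69 in cKO.

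**Figure D3:**
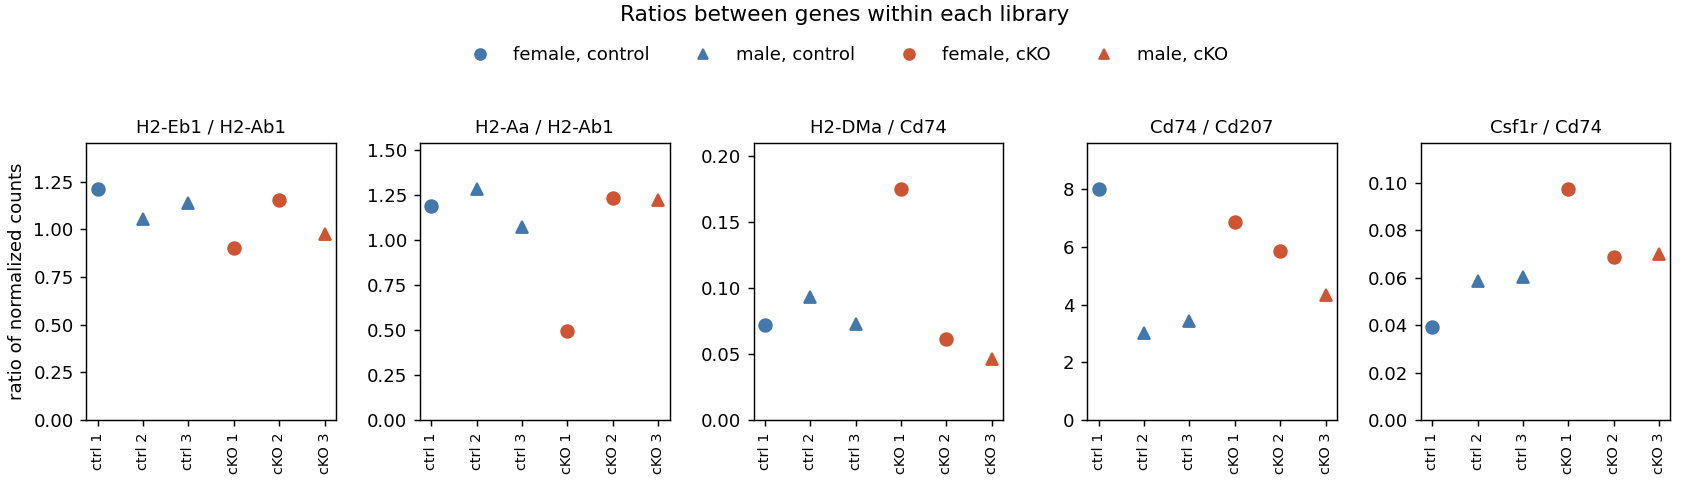
Ratios of normalized counts between pairs of the genes in each library, axes from 0, circles for female and triangles for male libraries. H2-Eb1 to H2-Ab1 varies 1.34-fold, H2-Aa to H2-Ab1 and H2-DMa to Cd74 depart in cKO replicate 1, and Cd74 to Cd207 is higher in the 3 female libraries.

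The genes whose profile over the 6 libraries came nearest to that of Cd74 were sought among 10021 others with a mean of at least 50 (Gm and Rik names and date names left out), by the root mean square difference of centred log2(value + 1). Vim, the intermediate filament of mesenchymal and blood cells, was nearest (0.11). It was at 164, 184 and 196 in controls and at 331, 253 and 1336 in cKO. Tnfaip2, a TNF-inducible gene, followed (0.22), at 69.0, 82.1 and 107 in controls and at 165, 131 and 454 in cKO. The next 3 were H2-Eb1, H2-Aa and H2-Ab1 (0.22, 0.30 and 0.33). Csf1r ranked 8, Cd207 ranked 13 and H2-DMa ranked 29, while Il34 ranked 992 and Epcam 9431.

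Nearest to Cd207 was Cytip (0.24), which encodes a cytohesin-binding protein of blood cells. Cytip was at 25.0, 59.4 and 46.5 in controls and at 34.2, 55.4 and 304 in cKO, with the same low value in the female control. H2-Aa, Vim, Tnfaip2 and Cd74 followed at 0.33 to 0.51. These distances describe 6 libraries of 2 groups that differ in depth and sex.

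**Figure D4:**
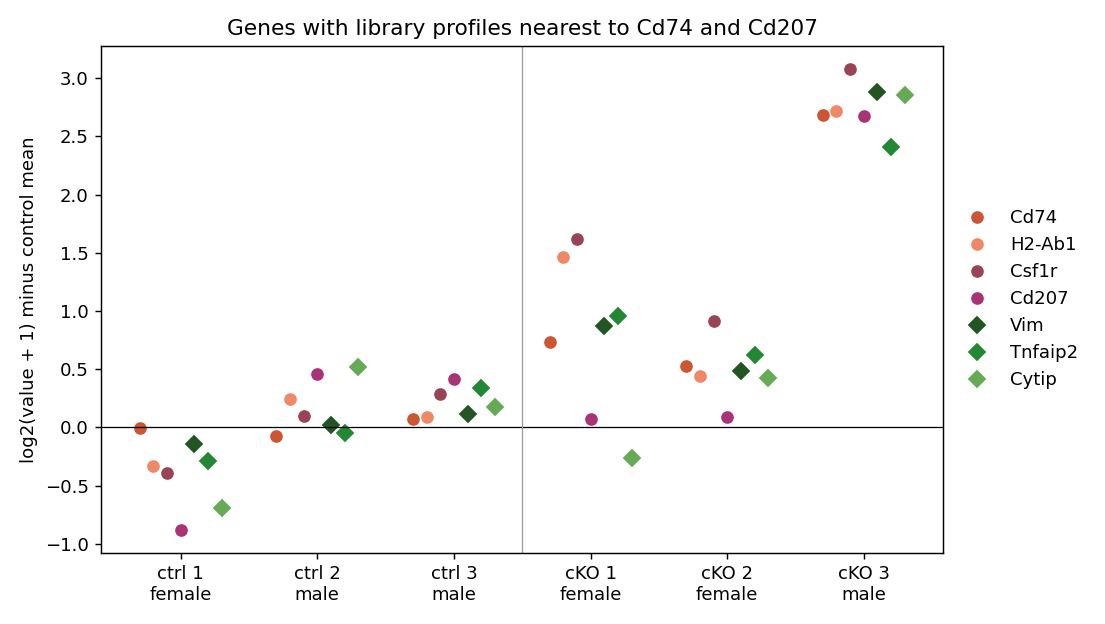
Library values of log2(value + 1) minus the control mean for Cd74, H2-Ab1, Csf1r and Cd207 (circles) and for Vim, Tnfaip2 and Cytip (diamonds), slightly offset within each library. Every gene shown is highest in cKO replicate 3, and Cd207 and Cytip share a low value in control replicate 1.

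Other genes of Langerhans cells lay higher in cKO in part. Of 25 on a list of such genes, 15 were tested. Of these, 11 lay higher and 4 lower in cKO and 0 passed adjustment (median log2 fold change 0.69, against -0.03 for all genes tested). Only 10 of the 15 had a control mean of at least 10. The others, Csf2ra among them, passed the filter through their cKO values and all lay higher, which tilts the count and median upward. The pan-haematopoietic Laptm5 was at 28.1, 31.5 and 45.9 in controls and at 115, 77.6 and 293 in cKO (1.97, SE 0.52, limma adjusted p = 0.744). Csf2ra, a GM-CSF receptor chain, gave 1.67 (SE 0.67, adjusted p = 0.744), and Cd24a, the most abundant on the list and also a keratinocyte gene, gave -0.35 (SE 0.18).

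This list leaned on cKO replicate 3 too. That library was highest for 12 of the 15 genes, against 14.5% of all genes tested, but 5 of the 15 had control means under 10 and so passed the filter through their cKO values. Ptprc, the leukocyte antigen CD45, was at 27.6 to 30.6 in controls, at 92.9 and 263 in cKO replicates 2 and 3, and listed at 0 in cKO replicate 1. The list's median was 1.50 with 14 of 15 higher without cKO replicate 1, and -0.28 with 7 of 15 higher without cKO replicate 3. Leaving out cKO replicate 2 gave 0.27, and leaving out control replicate 1 gave 0.19.

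The rest of the class II machinery did not share one direction. Of 18 names for other chains, exchange factors and processing enzymes, 9 were tested, of which H2-DMb2 passed the filter through its cKO values. Of these, 4 lay higher and 5 lower, with 0 called (median -0.04, and -0.10 to 0.03 with single libraries left out). Ctss, the protease cathepsin S that trims the invariant chain, was at 16.1, 16.9 and 17.0 in controls and at 83.4, 31.4 and 114 in cKO (1.94, SE 0.57, adjusted p = 0.744). Its cKO values all lay above the controls. Lgmn, a lysosomal protease, gave -0.54 (SE 0.28) and Ctsb, the most abundant, -0.04 (SE 0.18).

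The factors that CIITA docks on went both ways in the fit, and the interval of each covers 0. All 7 genes of the RFX, NF-Y and CREB1 group were tested, 4 higher and 3 lower, with 0 called and a median of 0.07, or 0.01 to 0.14 with single libraries left out. Rfxap gave 0.49 (SE 0.41, interval -0.48 to 1.45), Rfxank 0.34 (SE 0.30, interval -0.36 to 1.03) and Creb1 0.07 (SE 0.16, interval -0.30 to 0.45). Intervals this wide do not show that the factors were unchanged. Of the interferon-gamma receptor and signalling genes, whose pathway can induce Ciita, 7 of 8 were tested, 1 higher and 6 lower, with 0 called (median -0.16). That median was -0.31 without cKO replicate 1, -0.36 without cKO replicate 3 and -0.27 without control replicate 3. The kinase gene Jak2 gave -0.86 (SE 0.30), the receptor gene Ifngr1 -0.58 (SE 0.21) and the most abundant, Jak1, -0.40 (SE 0.22).

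Around the IL-34 and CSF1 receptor, 6 of 8 further genes were tested, Tyrobp having passed the filter through its cKO values. Of these, 3 lay higher and 3 lower, with 0 called (median 0.03, or 0.74 without cKO replicate 1 and -0.08 to 0.13 without each of the others). Inpp5d, a phosphatase of blood cells, gave 1.41 (SE 0.62) and the syndecan Sdc1 -0.21 (SE 0.19). TGF-beta activated by keratinocyte integrins keeps Langerhans cells in the epidermis, and all 12 genes of that route were tested, 4 higher and 8 lower, with 0 called (median -0.26). Itgb6, a subunit of an activating integrin, was at 548, 677 and 1534 in controls and at 141, 445 and 221 in cKO (-1.78, SE 0.50, adjusted p = 0.744). The receptor Tgfbr2 gave -0.99 (SE 0.29). Runx3, a transcription factor of Langerhans cells and of lymphocytes, was at 7.12, 9.61 and 5.84 in controls and at 77.6, 16.9 and 57.6 in cKO, and was named after its values were seen. It passed the filter through its cKO values, and its 77.6 is from cKO replicate 1, where 1 read is worth 12.2.

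Epcam's epithelial companions, all 9 tested, lay lower in 8 with 0 called (median -0.43, or -0.69 without control replicate 1). The cadherin Cdh1 gave -0.79 (SE 0.30) and the hyaluronan receptor Cd44 -1.15 (SE 0.44), both with overlapping groups. In 3 of the 9 all cKO values lay below all controls, which was so at 5.7% of all genes. Among these is a gene listed at 0 in the shallow cKO replicate 1.

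**Figure D5:**
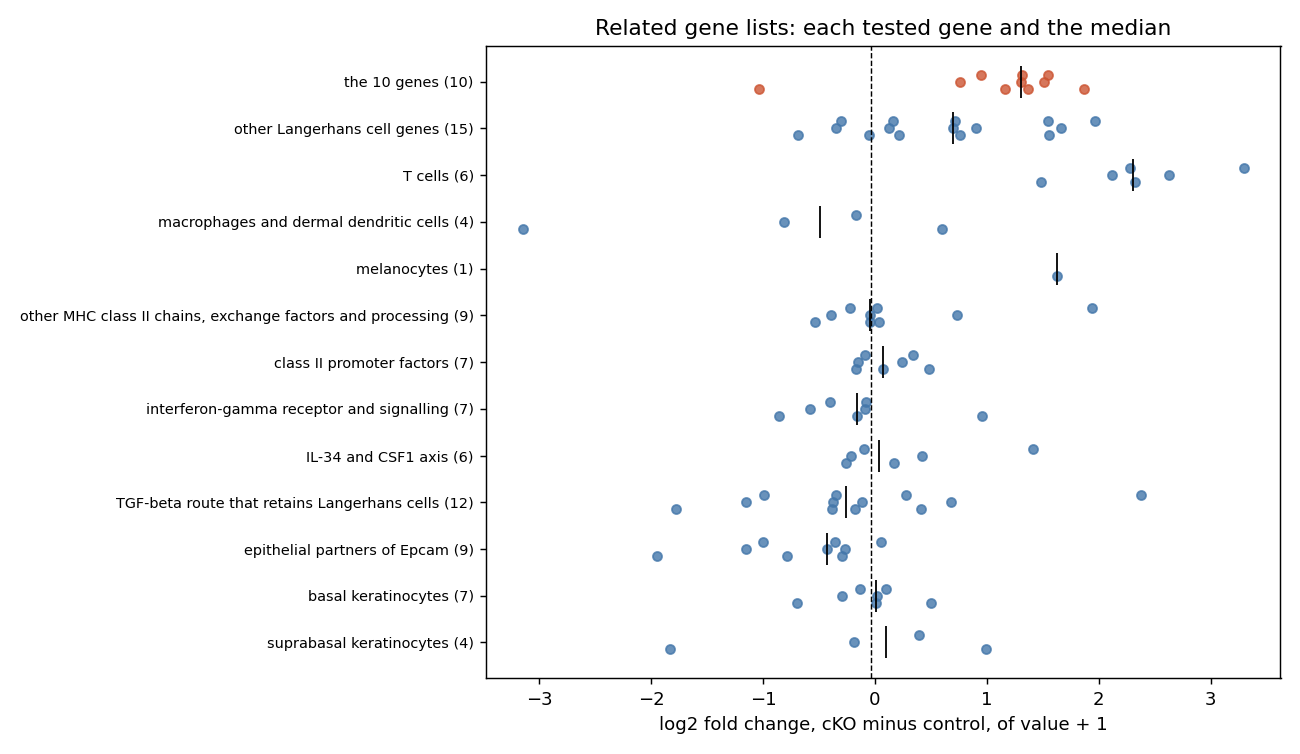
The log2 fold change (cKO minus control) of each tested gene in the related lists, a black bar at each list's median and a dashed line at the median of all genes tested (-0.03). The other Langerhans and T cell lists lie to the right, Epcam's epithelial partners to the left, and the promoter factors around the dashed line.

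Markers of some other cell types also lay higher in cKO. T cell genes were summed over the 10 of 12 list members matched and came to 58.8 to 114 normalized counts in controls and 243 to 707 in cKO. All 6 tested, 2 of which passed the filter through their cKO values, lay higher with 0 called (median 2.30, or 1.98 without cKO replicate 3), with Cd7 at 2.63 (SE 0.62) and Cd3e at 2.12 (SE 0.50), adjusted p = 0.744 for both. The part of T cells in the differences above was not tested.

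Macrophage and dermal dendritic cell genes summed to 79.4 to 155 in controls and 32.5 to 200 in cKO. Of 14 on that list, Cd163, Fcgr1, Cd209a and Clec9a were at 0 in all libraries, and Mrc1 reached at most 0.984. Of the 4 tested, 1 lay higher and 3 lower with 0 called (median -0.49, or 0.68 without cKO replicate 1, -1.02 without cKO replicate 2 and -1.65 without cKO replicate 3). Cd68 gave 0.60 (SE 0.49) and Zbtb46 -3.15 (SE 1.17). All 3 lower genes, Zbtb46 among them, were listed at 0 in cKO replicate 1, under that library's limit of 36.7. B cell genes summed to at most 6.48, with Cd79b, Ms4a1 and Pax5 at 0 in every library. Mast cell genes summed to at most 17.7, with 5 of 6 at 0 throughout.

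Melanocyte genes summed to 18.8 to 21.6 in controls and 12.3 to 75.9 in cKO, where Dct gave 1.63 (SE 0.75). Dct, the 1 melanocyte gene tested, passed the filter through its cKO values. Fibroblast genes summed to 16.9 to 31.3 and 20.8 to 43.4, and endothelial genes to 7.38 to 12.5 and 12.8 to 24.8. Basal keratinocyte genes summed to 542359 to 582187 in controls and 504790 to 706940 in cKO, where Trp63 gave 0.50 (SE 0.21) and Itga6 -0.70 (SE 0.36). Suprabasal keratinocyte genes summed to 40007 to 87957 and 68453 to 91265, where Krt1 gave 0.99 (SE 0.35), Lor -1.84 (SE 1.03) and Krt10 0.40 (SE 0.34). The part of these cells in the values of the 10 genes was not tested.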

How the data were processed

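The deposited table gives 1 normalized count signal per gene and library. STAR, DESeq2 and GRCm38 were used by the authors per the submitters' processing notes, and the labels' protocols name a directional poly(A) kit. Annotation, counter, strand setting and filters were not given in the sources used here. The worth of 1 read was taken from the smallest step among each library's lowest values. Whole reads could not be recovered, since only 9.86% to 13.7% of values between 20 and 100 reads came within 0.05 of a whole read, so the planned test for normalized values was used. Approximate reads cover counting error only.

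Values were fitted as log2(value + 1) with limma 3.58.1 in R 4.3.3 (trend, robust, two-sided, all 6 libraries, no covariates). Genes with a mean of at least 10 were fitted, with Benjamini-Hochberg adjustment over 12239 genes. Adding 1 understates changes of weak genes whose values are above 0. A 0 in cKO replicate 1, where 1 read is worth 12.2, can instead lower or reverse them. Ptprc averaged 29.4 in controls and 119 in cKO but was fitted at -0.06. The steps were checked on simulated data. Gene positions and exonic lengths came from GENCODE M21 (GRCm38). Groups and numbers came from the sample titles.

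The 10 genes and all lists were chosen with earlier results of these data known. Named are the 10 genes; per list the 2 tested genes of smallest unadjusted p and the most abundant; the 5 genes nearest to Cd74 and to Cd207; and Piezo1, Xist, Ddx3y, Krt5, Krt14 and Ptprc as level references. 1 gene that this rule names is not reported here. Ddx3y is used for sex without its values. Genes at 0 throughout, Mrc1, Brd2, Hmgxb3, H2-Ea-ps, H2-DMb2, Tyrobp and Runx3 were named after their values were seen.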

Additional observations from a re-analysis of the deposited data

How the results depend on the processing

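With 6 libraries, 0 genes were called under each alternative but one. Without cKO replicate 2 there was 1, Amd1, and without each other library 0; 0 listed genes other than the 10 were called in any. Unadjusted p under 0.05 held for 169 to 1576 genes. The signs of the 10 genes held in all 159 fitted values under pseudocounts of 0.5 and 8, no filter, a mean of at least 50 (which drops Ciita), equal totals, quantile normalization, sex as a term, limma without trend, a replicate block, limma-voom on approximate reads and each library left out. No filter, the mean of at least 50, limma without trend and the block cannot change a fold change, so the sign could not differ there. Without cKO replicate 3, Cd207 kept its sign at only 0.08. Since this contrast chose the genes, nothing is read from this tally. limma-voom put the median of all genes at 0.10 instead of -0.03. The within-sex values, the counts of genes whose groups did not overlap (5 to 7 of the 10 higher and 1 lower with each library left out, where 6.98% to 16.2% of all genes were higher and 7.25% to 18.3% lower) and the list medians with libraries left out were added after seeing the data.

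With a replicate block for the number in the titles, 0 genes were called, as without it. In this balanced design the block leaves each fold change as it was, and the SE of Cd74 was 0.40 instead of 0.52. Same-numbered libraries deviated together at r = 0.09, -0.15 and 0.07 across genes, so the numbers were not treated as pairs. Depth limits what cKO replicate 1 can show for genes under 36.7 normalized counts, Ciita and Ptprc among them. Values not far above that limit in this library, such as those of Runx3, Ctss, Cd7 and Csf1r, rest on few reads too.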
